A study of Mus musculus with 6 samples.

Results

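The genes described here make and pack insulin: Ins2, which encodes preproinsulin 2, the oxidase gene Ero1b, the prohormone convertase genes Pcsk1 and Pcsk2, the carboxypeptidase gene Cpe, the granin genes Chga, Chgb, Scg2 and Scg3, and Ptprn, a granule membrane protein gene. They were chosen by name, as all probe sets whose single gene symbol is one of these 10 (Ero1b also under its older name Ero1lb). Of the 10 genes 9 had such a probe set, 12 of the 34958 probe sets with 1 gene symbol, out of 45101 in all. Pcsk2 was not analysed here. Ero1b had 3 probe sets, Cpe had 2 and the other 7 genes had 1 each.

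The values are log2 intensities of probe sets (groups of probes for 1 transcript) on Affymetrix mouse arrays, from 6 samples. In 4 of them, MIN6 cells, a mouse insulinoma line that secretes insulin, had been infected for 48 h with an adenovirus at a multiplicity of infection of 250, in DMEM with 2% FBS, 4.5 g/l of glucose and 2-mercaptoethanol. The virus carried green fluorescent protein in the control (AdGFP, 1 array), miR-7a, named as miR-7a2 in the design text (AdmiR7a, 2 arrays), or miR-7b (AdmiR7b, 1 array). All 4 MIN6 samples therefore carried adenovirus, and no uninfected sample was among them. The other 2 arrays held pancreatic islets on a C57BL/6 background, 1 from a mutant in which the Lox/Cre system removes miR-7a2 from beta cells (KO) and 1 from wild type (WT). The Cre driver, the age and sex of the mice and the number of animals per islet sample are not given in the sources used here. The AdmiR7a infection was made in duplicate, and nothing says whether from separate cultures, so the spread between those arrays may be technical.

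Insulin starts as preproinsulin, which enters the endoplasmic reticulum (ER), loses its signal peptide and folds around disulfide bonds. Protein disulfide isomerases form these bonds and pass the electrons to the ER oxidases Ero1a and Ero1b, the second of which is abundant in the pancreas. Prohormone convertases then cut proinsulin at pairs of basic residues and carboxypeptidase E trims the ends. Granins help condense the cargo of secretory granules, and these genes are shared by the endocrine cells of the islet, not by beta cells alone.

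The vectors deliver microRNAs with the same seed, the stretch that pairs with target transcripts. The mature sequences are shown because both are pooled below; capitals mark the seed, bases 2 to 8, and the sequences are from RefSeq (GRCm38.p6).
mmu-miR-7a-5p: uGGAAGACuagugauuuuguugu
mmu-miR-7b-5p: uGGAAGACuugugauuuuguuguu
Counted from the 5′ end, they differ by A10U within the 23 bases compared, and miR-7b has 1 more base at its 3′ end. The deletion in the islets concerns the Mir7-2 hairpin, at chr7:78888277-78888373 on the plus strand, shown with its mature miR-7a in capitals.
Mir7-2: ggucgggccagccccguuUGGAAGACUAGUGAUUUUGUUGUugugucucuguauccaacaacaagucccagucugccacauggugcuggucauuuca
The same mature miR-7a is also encoded by Mir7-1 on chromosome 13, which the islet mutant keeps as far as the labels say.

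Depth of an array is not a count, so the number of arrays limits the precision. On the 6 arrays, 44.7% to 46.4% of probe sets had a log2 value over 4. The SD of the differences across genes was 0.194 between the AdmiR7a arrays and 0.509 to 0.575 between AdGFP and each of the others. The hybridisation controls averaged 11.62 on AdGFP against 11.74 to 11.85 on the miR-7 arrays, and the poly-A spikes 7.52 in KO against 8.55 in WT. Of 7 measured beta-cell markers, 6 lay above 4 on every MIN6 array and 7 on both islet arrays. The exception in MIN6 was the glucose transporter gene Slc2a2, at 3.84 on AdGFP and 2.52 on each miR-7 array, whereas KO islets held it at 14.49 and WT islets at 14.15. The glucagon gene Gcg, an alpha-cell marker, stood at 13.35 on AdGFP. None of 7 immune and none of 7 acinar markers reached 4 on a MIN6 array, whereas 7 immune and 2 acinar markers did in the islets.

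The first comparison asks how these genes differ in a beta-cell line given more miR-7. Ero1b and Pcsk1 were lower on all 3 miR-7 arrays than on AdGFP, to 40.6% and 67.1% of its level. Ins2, Cpe, Chga and Chgb differed from AdGFP by less than 0.09 on average, and Scg2, Scg3 and Ptprn lay between 0.19 and 0.31 below it without passing the test. In the limma fit of the 3 miR-7 arrays against AdGFP, 2 of the 9 genes fell (Ero1b and Pcsk1) and 0 rose, with p adjusted by Benjamini-Hochberg over 10369 genes and a threshold of 0.05. Of all genes tested, 11.9% fell and 14.3% rose. At an unadjusted p under 0.05 by limma the fit added Ptprn. Many genes outside the members passed that looser threshold too, as Ptprn ranked only 3160 among the 10369 genes. Limma with a trend on the mean level called 4 of the 9 lower and 0 higher, where it called 12.5% of all genes lower and 15.8% higher.

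The median difference of the 9 genes was -0.19, beside 0.06 for all genes tested, and the median size of a difference was 0.19 beside 0.26. All 3 miR-7 arrays lay below AdGFP for 8 of the 9 genes, which was so for 32.9% of all genes tested, and all 3 lay above it for 0 of the 9 and for 46.5% of all genes. As every difference is taken from the same AdGFP array, these directions are not independent of each other. Leaving out any 1 of the 3 miR-7 arrays ended both calls, with adjusted p between 0.0650 and 0.0784 and the same direction. These fits, with 1 residual degree of freedom, called 0% of all genes in either direction, although 3765 to 3888 genes had an unadjusted p under 0.05 by limma. A fit with no filter on low values also ended both calls, and it called 3.04% of 18194 genes lower and 2.35% higher.

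Some markers of beta cells fell with miR-7 as well, in the same fit. Pdx1, a transcription factor gene of beta cells, fell by 0.99 ± 0.10 (adjusted p = 0.0137), from 13.19 on AdGFP to between 12.13 and 12.30. Nkx6-1, another such gene, fell by 0.76 ± 0.10 (adjusted p = 0.0191), to between 10.16 and 10.34. The 7 measured beta-cell markers averaged 12.46 on AdGFP and 11.85 to 11.92 on the miR-7 arrays. This average includes Slc2a2, which lay below the filter at 4, at 3.84 on AdGFP and 2.52 on each miR-7 array. Slc30a8 fell by 0.73 ± 0.09, whereas Ins2 (0.06 ± 0.12) and Iapp (-0.01 ± 0.08) did not pass the test. G6pc2, the remaining marker, stood at 15.12 on AdGFP and 14.90, 14.90 and 14.69 on the miR-7 arrays. The part of the beta-cell markers in the differences of Ero1b and Pcsk1 was not tested.

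**Figure D1:**
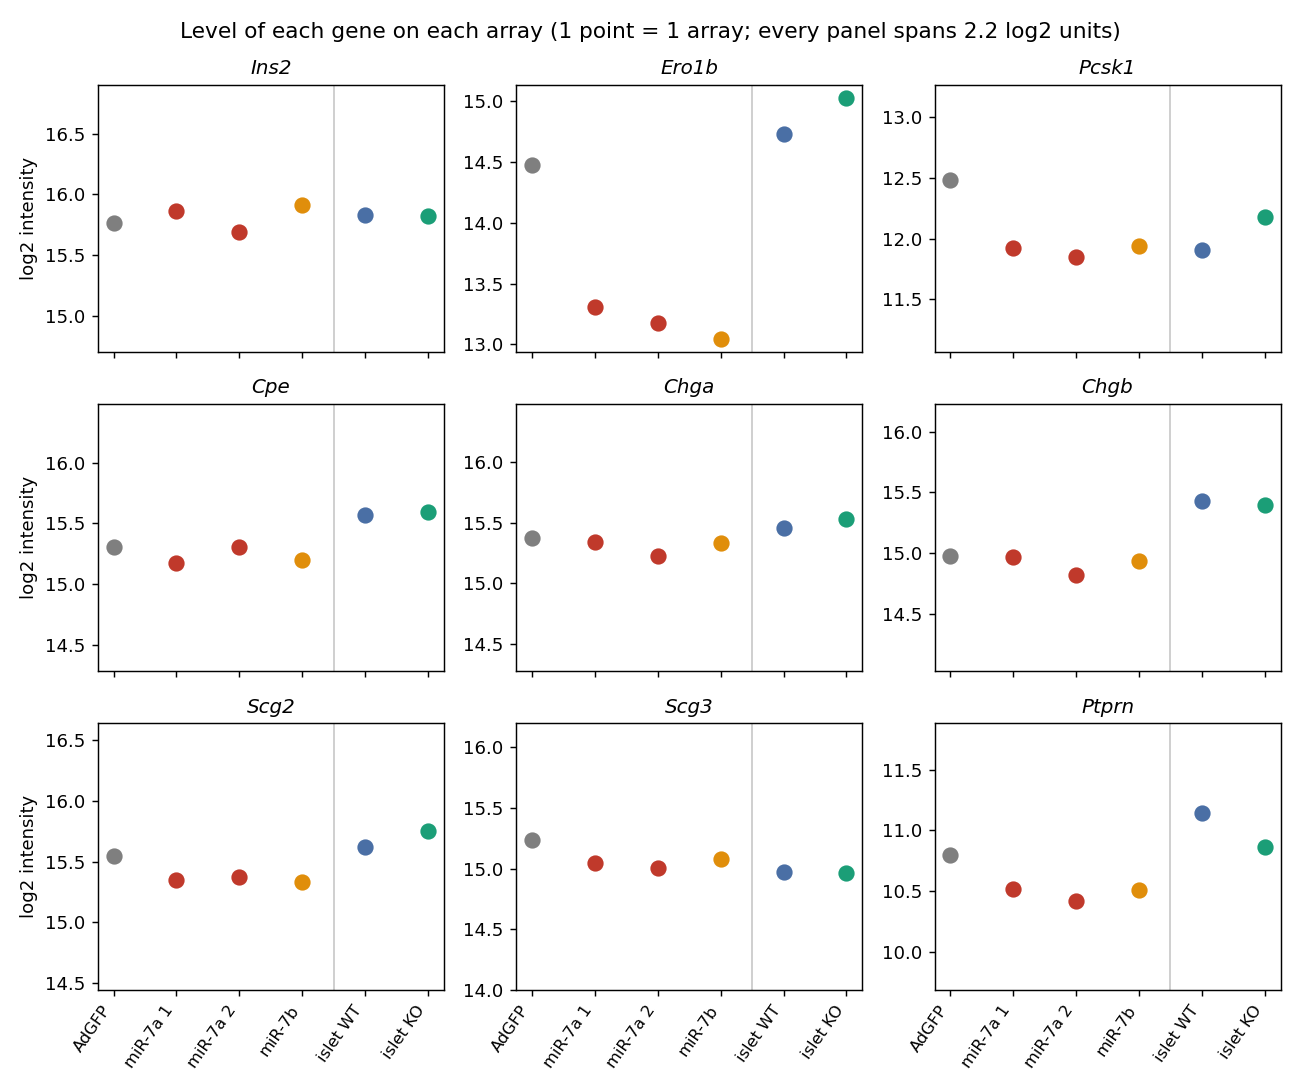
Level of each gene (log2 intensity, y axis) on each array (x axis), 1 point per array, with MIN6 arrays left of the grey line and islet arrays right of it; every panel spans the same height. Ero1b and Pcsk1 are lower on all 3 miR-7 arrays than on AdGFP, with average differences of -1.30 and -0.58, while the points of Ins2 lie within 0.23 of each other in MIN6.

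Ins2 had values of 15.76 on AdGFP, 15.86 and 15.69 on the AdmiR7a arrays, 15.91 on AdmiR7b, 15.82 in KO and 15.83 in WT islets. The miR-7 arrays lay on both sides of AdGFP, and the islet arrays differed by 0.01. The MIN6 difference was 0.06 ± 0.12 (SE), with a 95% interval from -0.27 to 0.39 (adjusted p = 0.723). This probe set is of the type that can share probes with other transcripts, so Ins2 and its near-identical copy Ins1, which was not analysed here, may both contribute.

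Ero1b encodes the ER oxidase that serves disulfide formation in insulin-secreting cells. The probe set used for the gene, 1434714_at, stood at 14.48 on AdGFP, 13.31 and 13.18 on the AdmiR7a arrays and 13.05 on AdmiR7b, a miR-7 mean of 13.18 ± 0.13 (SD, n = 3). All 3 miR-7 arrays lay below the single AdGFP array, as they did for 32.9% of all genes tested. The nearest miR-7 array differed from AdGFP by -1.17, and the miR-7 arrays lay within 0.26 of each other. Ero1b fell by 1.30 ± 0.13 (95% interval -1.65 to -0.95, adjusted p = 0.0134), and 2.96% of the genes tested differed by more.

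The other 2 probe sets of Ero1b gave the same direction at different sizes. Probe set 1425705_a_at was 13.03 on AdGFP and 12.20, 12.23 and 12.17 on the AdmiR7a and AdmiR7b arrays; it fell by 0.82 ± 0.07 in the fit over 18010 probe sets (adjusted p = 0.0222). Probe set 1449948_at was 7.12 on AdGFP and 4.82, 4.76 and 4.82 on the same arrays, and it passed the test as lower (adjusted p = 0.0204). Its miR-7 values lie close to the filter at 4, so no size is given for this fall. Those on AdmiR7a replicate 1 and AdmiR7b were equal to every digit, as were values of 1150 of the 18010 probe sets on at least 2 MIN6 arrays. The fit over probe sets called 4 of the 11 probe sets of these genes lower, the 3 of Ero1b and that of Pcsk1, and 0 higher, where 9.41% of all probe sets fell and 9.28% rose.

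Ero1a, the more widely expressed oxidase of the same family, is the paralog of Ero1b. It fell by 0.85 ± 0.09 (adjusted p = 0.0141), from 11.05 on AdGFP to 10.14, 10.27 and 10.19. All 3 probe sets of Ero1a and all 3 of Ero1b were lower on every miR-7 array than on AdGFP. One of them, 1449324_at, missed the threshold in the fit over probe sets (-1.04 ± 0.26, adjusted p = 0.0725), with a wider spread between the miR-7 arrays.

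**Figure D2:**
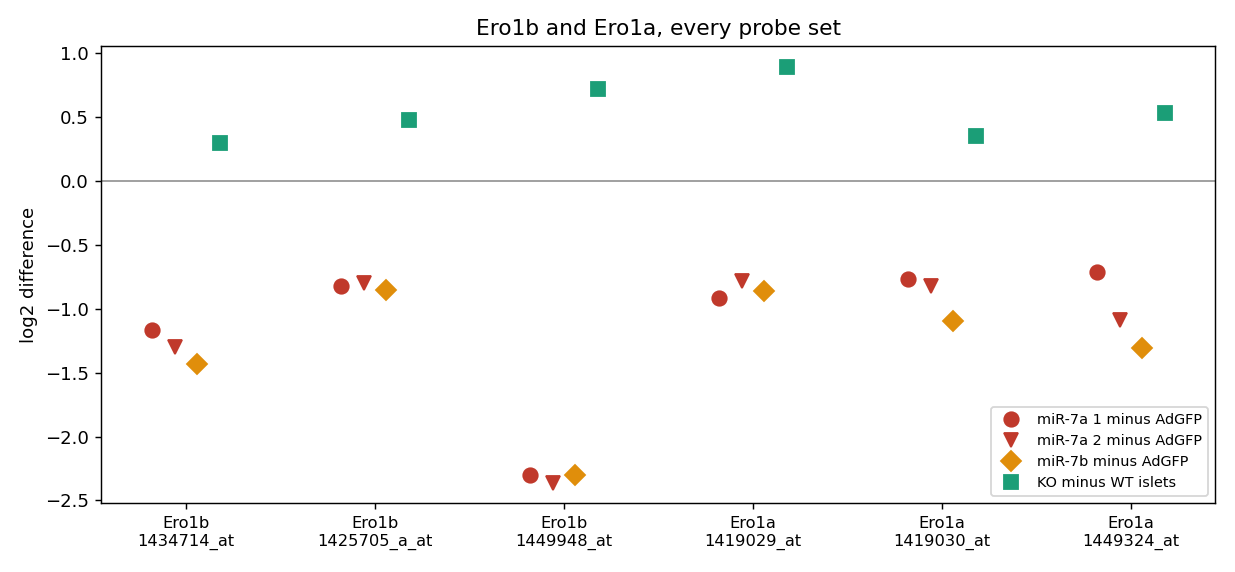
Log2 difference (y axis) of every probe set of Ero1b and Ero1a (x axis): each miR-7 array minus AdGFP, and KO minus WT islets, 1 array each. All 18 MIN6 points are below 0 and all 6 islet points above it; the MIN6 points share 1 AdGFP array, and the islet points were not tested.

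Pcsk1 encodes prohormone convertase 1, which cuts proinsulin. It stood at 12.48 on AdGFP, 11.92 and 11.85 on the AdmiR7a arrays and 11.94 on AdmiR7b. The 3 miR-7 arrays lay within 0.09 of each other and all below AdGFP. Pcsk1 fell by 0.58 ± 0.08 (95% interval -0.79 to -0.36, adjusted p = 0.0201), and 19.7% of the genes tested differed by more.

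Cpe, whose product removes the basic residues that the convertases leave, stood at 15.31 on AdGFP, 15.17 and 15.30 on the AdmiR7a arrays and 15.20 on AdmiR7b by probe set 1415949_at. The difference of -0.08 ± 0.09 did not pass the test (95% interval -0.33 to 0.17, adjusted p = 0.532). The other probe set of Cpe was at 2.17, the lowest value of the table, on all 6 arrays and did not pass the filter at 4.

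Among the granins, Chga stood at 15.37 on AdGFP, 15.34 and 15.22 on the AdmiR7a arrays and 15.33 on AdmiR7b (-0.07 ± 0.09, adjusted p = 0.552). Chgb stood at 14.97 on AdGFP and 14.97, 14.82 and 14.94 on the same arrays (-0.06 ± 0.09, adjusted p = 0.643). For both chromogranins the distance from AdGFP was smaller than the range among the miR-7 arrays. Scg2, the secretogranin II gene, stood at 15.54 on AdGFP and 15.35, 15.37 and 15.33 on the miR-7 arrays, a difference of -0.19 ± 0.07 (adjusted p = 0.117). Scg3, whose product binds chromogranin A at the granule membrane, stood at 15.23 on AdGFP and 15.05, 15.01 and 15.08, a difference of -0.19 ± 0.07 (adjusted p = 0.140). In Scg2 and Scg3 the miR-7 arrays lay close together and below AdGFP, and with 2 residual degrees of freedom the 95% intervals reached from -0.39 to 0.0013 and from -0.39 to 0.02.

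Ptprn, which encodes the granule membrane protein IA-2, stood at 10.80 on AdGFP, 10.52 and 10.42 on the AdmiR7a arrays and 10.51 on AdmiR7b. All 3 miR-7 arrays lay below the single AdGFP array, as they did for 32.9% of all genes tested. The difference of -0.31 ± 0.08 missed the threshold (95% interval -0.54 to -0.08, adjusted p = 0.0620). Ptprn narrowly passed when the arrays were normalized again or centred, when probe sets were averaged and with limma's trend (adjusted p between 0.0459 and 0.0499). It missed with a filter at 6, with no filter, in the fit over probe sets and when any 1 miR-7 array was left out.

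Several of these genes had very bright probe sets. The probe sets used for Ins2, Cpe, Chga, Chgb, Scg2 and Scg3 lay at the 99.7 percentile of all probe sets or higher on every array. Of the 175 genes with a MIN6 mean of at least 14, a level chosen after the values were seen, 5 rose and 6 fell, or 2.86% and 3.43%, and their median size of difference was 0.09, beside 0.26 for all 10369 genes. Whether the arrays resolve changes at this level was not tested, so a small difference of these 6 genes does not show that their RNA was unchanged.

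The AdmiR7b array asks whether the related microRNA gave the same values. It stood nearest to AdGFP among the miR-7 arrays for Pcsk1 and Scg3 and farthest for Ero1b, Scg2 and Ins2. The difference of Ero1b from AdGFP was -1.43 with AdmiR7b and -1.23 with AdmiR7a, and that of Pcsk1 was -0.54 and -0.59. With 1 array per group, Ero1b was the 1 member of 9 at least 1 lower with AdmiR7b, where 4.26% of genes were, and 0 members were at least 1 higher, where 3.86% were. The same gene was the 1 member at least 1 lower on both AdmiR7a arrays, where 2.15% of genes were. AdmiR7a against AdGFP by limma called 0 of 9 members and 0% of genes, with 1 residual degree of freedom. At an unadjusted p under 0.05 it held 3 of 9 members and 36.8% of genes, and Ero1b and Pcsk1 passed after adjustment (2 members) under 4 of the 5 alternatives, which called 9.89% to 22.8% of all genes; the other, with no filter, called 0 members and 1.92% of genes.

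Between the vectors, limma called 0 of the 9 members and 0% of all genes, with 0 members and 5.86% of genes at an unadjusted p under 0.05. AdmiR7b minus AdmiR7a ran from -0.20 ± 0.10 for Ero1b (adjusted p = 0.742) to 0.14 ± 0.12 for Ins2 (adjusted p = 0.807). The remaining 7 members differed by at most 0.05 between the vectors, less than their SE. This fit rests on the spread of 1 pair of arrays, and these values do not show that the vectors act alike.

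The islet comparison asks about the reverse change, loss of miR-7a2 from beta cells. Of the 9 genes 5 were higher in KO than in WT, where 44.7% of 10568 genes were, and their median difference was 0.02, beside -0.03 for all genes. None was past a log2 size of 1 or 0.58 in either direction (0 of 9 members): 4.11% of genes were at least 0.58 higher and 4.72% lower, and 1.36% and 1.29% past 1. With 1 array per group there is no replicate check and no test. In whole islets, fewer cells of a type and less RNA per cell cannot be told apart, and RNA of cells that keep miR-7a2 is part of both samples.

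Ero1b was higher in KO by each of its probe sets: 15.03 against 14.73 in WT for 1434714_at, 13.01 against 12.53 for 1425705_a_at and 8.69 against 7.97 for 1449948_at. These differences were 0.30, 0.48 and 0.72, and 28.2% of islet genes differed by more than the first. Ero1a was higher in KO by 0.53 at the probe set used for islets, and by 0.35 and 0.89 at its other probe sets. Pcsk1 stood at 12.18 in KO and 11.90 in WT, 0.28 higher, with 30.6% of genes differing by more. The 2 genes that fell with miR-7 were thus the 2 members with the largest KO excess; of the 1145 genes that fell in MIN6 and were measured in islets, 68.2% were above 0 in KO minus WT. Of all 9781 genes measured in both systems, 1.1% fell in MIN6 and were at least 0.58 higher in KO, and 0 of the 9 members were.

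Ptprn was lower in KO, at 10.86 against 11.14 in WT (-0.28), the direction it also had with miR-7 in MIN6. Scg2 was 15.75 in KO and 15.62 in WT, 0.13 higher, and Chga 15.53 and 15.45, 0.07 higher. Cpe was 15.59 in KO and 15.57 in WT. Chgb (-0.03), Scg3 (-0.02) and Ins2 (-0.01) differed by so little that quantile normalization of the 2 arrays or centring moved their sign or size. Cell type markers also differed between the islet samples. KO minus WT averaged 0.18 for 7 beta-cell genes, which did not move alike. Higher in KO were Nkx6-1 (11.56 against 10.83), Slc2a2 (14.49 against 14.15), Pdx1 (12.09 against 11.81) and G6pc2 (14.98 against 14.86). Slc30a8 was lower (14.11 against 14.32), and Ins2 (15.82 against 15.83) and Iapp (16.10 in both) differed little. KO minus WT averaged 0.01 for 5 alpha-cell genes, -0.09 for 5 genes of delta, PP and epsilon cells and -0.15 for 7 acinar genes. The average was -0.31 for 7 endothelial, 0.11 for 7 immune and -0.19 for 6 stellate and fibroblast genes. The average of 0.43 for 4 ductal genes came from Krt19 alone, at 4.45 in KO and 2.68 in WT, while Krt7 was at 13.63 and 13.68. Their part in the differences of Ero1b, Pcsk1 and Ptprn was not tested.

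**Figure D3:**
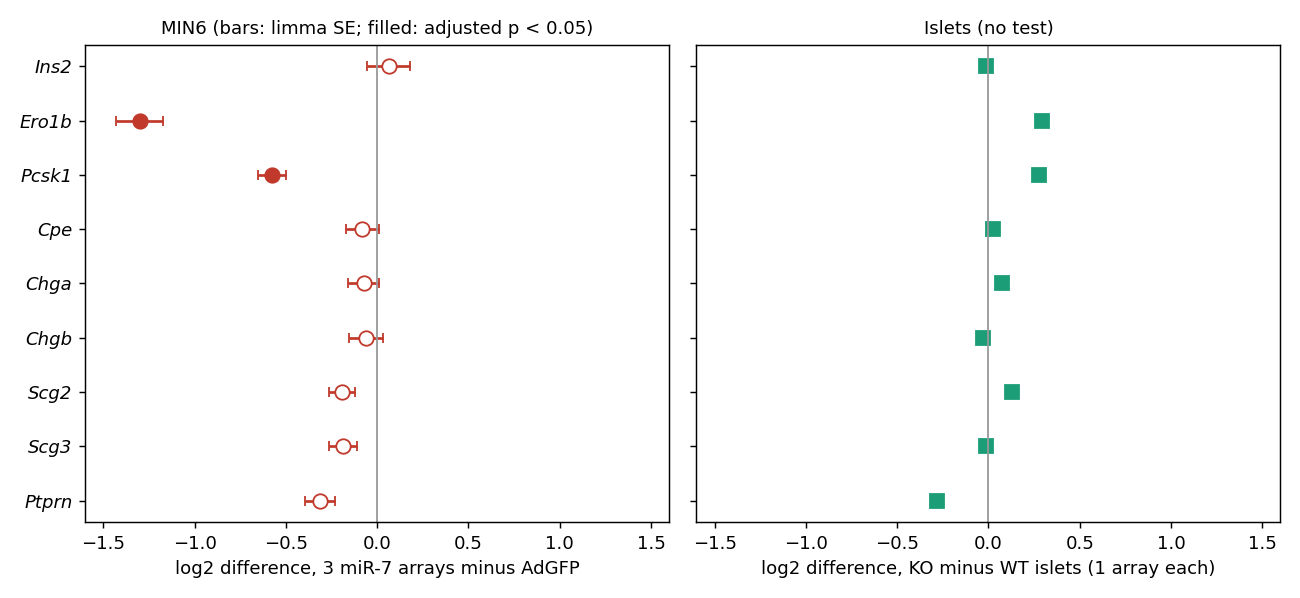
Left, log2 difference of the 3 miR-7 arrays minus AdGFP with its limma SE (filled points passed the adjusted p of 0.05); right, KO minus WT islets, 1 array each with no test. Ero1b (-1.30) and Pcsk1 (-0.58) are the filled points on the left and stand highest on the right (0.30 and 0.28), whereas Ptprn is below 0 on both sides.

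Within a probe set, WT islets and AdGFP cells can be set side by side, although they differ in tissue, infection and culture and were not tested. Pcsk1 was 0.58 lower in WT islets than in AdGFP cells and Scg3 0.26 lower, by WT minus AdGFP values of -0.58 and -0.26. Chgb was 0.46 higher in WT islets, Ptprn 0.35 and Cpe 0.26. Ins2, Chga and Scg2 differed by at most 0.08. The probe sets of Ero1b disagreed here, with WT minus AdGFP at 0.25, -0.50 and 0.85, so no direction is given for it.

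Other genes of the secretory route were taken from 6 lists chosen by function. Of 98 genes tested in MIN6, 16 fell and 4 rose, where 11.9% and 14.3% of all genes tested did. Leaving out any 1 miR-7 array left 0 calls. Of 22 genes of ER folding and disulfide formation, 3 fell and 0 rose (median -0.09, beside 0.06 for all genes): Ero1a, the ubiquitin ligase gene Syvn1, which serves ER-associated degradation, fell by 0.65 ± 0.08 and the disulfide isomerase gene Pdia6 fell by 0.34 ± 0.08 (adjusted p = 0.0175 and 0.0448). Of 18 genes of ER entry and signal cleavage, 1 fell and 0 rose (median 0.08): Sec61a1, the pore subunit of the translocon, stood at 14.46 on AdGFP and 13.64, 13.53 and 13.43 on the miR-7 arrays and fell by 0.93 ± 0.11 (adjusted p = 0.0164). The counts of these lists and of those below can be read beside the 11.9% of all genes that fell and the 14.3% that rose.

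Of 8 tested partners in proprotein processing, 3 fell and 0 rose (median -0.22). Cpd, a carboxypeptidase of the secretory route related to Cpe, fell by 1.20 ± 0.22 (adjusted p = 0.0320), the convertase gene Furin fell by 0.51 ± 0.08 (adjusted p = 0.0232) and Pcsk7 fell by 0.44 ± 0.07 (adjusted p = 0.0273). Pcsk1n, which encodes the convertase 1 inhibitor proSAAS, was at 10.52 on AdGFP and 11.18, 10.91 and 11.21 on the miR-7 arrays. Its difference of 0.58 ± 0.15 just missed the threshold (adjusted p = 0.0596) and had the opposite sign to that of Pcsk1. In islets the signs were turned: Pcsk1n was 0.54 lower in KO, by a KO minus WT value of -0.54. Scg5, the chaperone of convertase 2, was at -0.13 ± 0.07 (adjusted p = 0.249), and Pam, which amidates peptides, at 0.06 ± 0.10 (adjusted p = 0.690). Ptprn2, the paralog of Ptprn, was at -0.09 ± 0.10 (adjusted p = 0.531).

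Of 19 other granule cargo and membrane protein genes, 5 fell and 1 rose (median -0.16). The monoamine transporter gene Slc18a1 fell by 1.81 ± 0.17 and Slc18a2 fell by 0.87 ± 0.09, Ucn3, a urocortin gene, fell by 1.15 ± 0.08 and the zinc transporter gene Slc30a8 fell by 0.73 ± 0.09. Vgf, a granin-family cargo gene, stood at 13.36 on AdGFP and 12.60, 12.54 and 12.54 on the miR-7 arrays and fell by 0.80 ± 0.07 (adjusted p = 0.0132). It was 1.05 higher in KO islets, 11.65 against 10.59. Sv2b, a vesicle glycoprotein gene, rose by 0.53 ± 0.11 (adjusted p = 0.0379). Iapp, the amylin gene that beta cells release with insulin, was at -0.01 ± 0.08 (adjusted p = 0.912), at 16.14 on AdGFP near the top of the scale.

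Of 22 genes of granule biogenesis and acidification, 4 fell and 2 rose (median -0.01). Tbc1d5, which acts on Rab GTPases, fell by 1.19 ± 0.16, the sorting receptor gene Sort1 fell by 1.19 ± 0.10 and the proton pump subunit gene Atp6v1a fell by 1.03 ± 0.14, while its accessory subunit gene Atp6ap1 fell by 0.40 ± 0.08. Another pump subunit gene, Atp6v1b2, rose by 0.45 ± 0.09 and Ostm1, a lysosomal chloride channel partner, rose by 0.58 ± 0.10. Of 9 RNA-binding protein genes studied on insulin or granule transcripts, 1 rose and 0 fell (median -0.06). Ptbp2 rose by 1.20 ± 0.09 (adjusted p = 0.0119), whereas its paralog Ptbp1, known to bind transcripts of insulin and granule proteins, was at -0.23 ± 0.09 (adjusted p = 0.123).

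**Figure D4:**
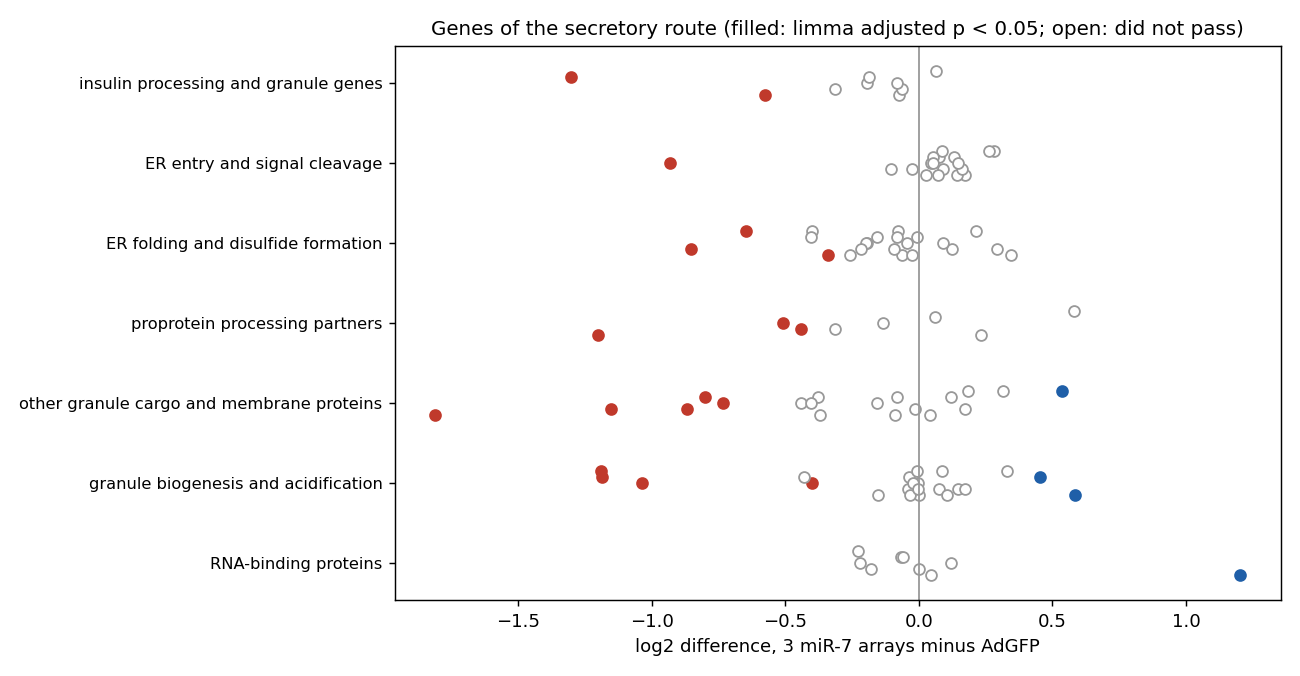
Log2 difference of the 3 miR-7 arrays minus AdGFP (x axis) for each gene of the 7 groups (rows), with red and blue filled points for genes that fell and rose at an adjusted p under 0.05 and open points for the rest; vertical scatter within a row has no meaning. In the top row the filled points are Ero1b and Pcsk1, and each of the 5 rows below it holds at least 1 gene that fell, while the lowest row holds none.

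In islets the 2 highest and 2 lowest genes of each list were named without a test. Besides Vgf, the neuropeptide gene Npy was 2.98 higher in KO (13.13 against 10.15), Cpm 0.76, Ica1l 0.61, Atp6v1a 0.58 and Pcsk4 0.49. Lower in KO were Cadps2 (-1.22), Qpct (-1.18), Pcsk6 (-0.73), Sv2b (-0.54), Pick1 (-0.47) and Ica1 (-0.42). Qpct (3.95 in KO against 5.13 in WT) and Ica1l (5.59 against 4.97) had values near the filter at 4, so their sizes are uncertain. The genes of ER entry and ER folding stayed within a size of 0.58, from Prdx4 (-0.40), Srprb (-0.38), Dnajb11 (-0.38) and Srp9 (-0.28) to Ssr4 (0.08), Dnajb9 (0.17), Sec63 (0.23) and Ero1a (0.53). Among RNA-binding protein genes, Pabpc1 (0.46) and Tia1 (0.20) were highest and Elavl4 (-0.13) and Tial1 (-0.10) lowest.

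The genes whose differences lay closest to those of Ero1b, the member with the largest difference in MIN6, were found by the Euclidean distance over 4 log2 differences (each miR-7 array minus AdGFP, and KO minus WT) among 9781 genes measured in both systems. They were Plp2 (distance 0.146), Mllt11 (0.147), Sgpl1 (0.149), Zdhhc16 (0.160) and Cbl (0.175). Each differed from AdGFP by -1.43 to -1.11 on every miR-7 array and was between 0.14 and 0.36 higher in KO islets. These differences share 1 AdGFP array and 1 pair of islet arrays.

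Promoter sequence was available for 8 of the 10 members from RefSeq (GRCm38.p6), as the 250 bases before an annotated start site. Searched on both strands, the ER stress response element, CCAAT and CCACG with any 9 bases between them, known as a site of the ATF6 branch of the unfolded protein response, matched in 1 member, Ero1b, and in 0.113% of 32851 promoters of that length. It stands on the opposite strand, starting 201 bases before the start site. The sequence is shown up to the annotated gene's first base, with both ends of the element in capitals.
Ero1b, chr13:12565633-12565817, plus strand: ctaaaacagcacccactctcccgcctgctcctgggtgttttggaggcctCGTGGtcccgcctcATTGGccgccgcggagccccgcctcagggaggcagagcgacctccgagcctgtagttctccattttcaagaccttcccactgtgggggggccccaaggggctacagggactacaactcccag
The window of Ero1a held no match to the whole element.

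The cAMP response element TGACGTCA matched in 3 members, Pcsk1, Chgb and Scg2, and in 1.55% of promoters. Its shorter core TGACG, which overlaps it, matched in 7 members (Chga, Chgb, Pcsk1, Pcsk2, Ptprn, Scg2 and Scg3) and in 17.8% of promoters. The windows of Pcsk1, Scg3 and Ptprn lie inside the annotated span of the gene. Their matches thus stand before a start site but not before the gene's first base. Among the granins, Chgb and Scg2 hold the whole element, 72 and 68 bases before the start site, whereas Chga and Scg3 hold only the core, 44 and 30 bases before it. The stretches of the first 3 are shown to compare the whole element with the core, in capitals.
Chgb, chr2:132781522-132781641, plus strand: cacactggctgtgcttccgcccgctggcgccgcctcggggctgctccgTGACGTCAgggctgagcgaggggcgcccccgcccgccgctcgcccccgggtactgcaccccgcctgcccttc
Scg2, chr1:79440027-79440146, minus strand: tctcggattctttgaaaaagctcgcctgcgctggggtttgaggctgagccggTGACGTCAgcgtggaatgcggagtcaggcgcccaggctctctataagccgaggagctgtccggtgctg
Chga, chr12:102554821-102554940, plus strand: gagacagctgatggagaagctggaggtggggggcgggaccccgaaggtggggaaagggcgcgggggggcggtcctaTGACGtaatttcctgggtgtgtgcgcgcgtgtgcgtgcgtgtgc
Other letters were searched too: CCAAT alone matched in 3 members and 33.8% of promoters, and CCACG alone in 4 members and 28.3%. CACGTG matched in 0 members and 6.02% of promoters, and TATAAA in 0 members and 12.4%. All these matches describe letters and not occupied sites. Of the genes that hold the whole cAMP element, Pcsk1 fell in MIN6, while Chgb and Scg2 did not pass the test. Each of them was lower on every miR-7 array than on AdGFP, as were 32.9% of all genes tested. A part of the element in these values was not tested.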

How the data were processed

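The authors deposited GCRMA output as log2 intensity per probe set, per the submitters' processing notes, which name GCRMA and affy without versions; GCRMA corrects background from probe sequence and quantile-normalizes arrays. Whether other arrays were normalized with these 6, and the build, are not given in the sources used here. Probe sets with 1 symbol were named by the platform annotation, updated by Entrez identifier through RefSeq (GRCm38.p6, names only). Each gene took its probe set with the highest mean in MIN6 or in islets, and genes with a mean below 4 were left out. Groups came from the labels. MIN6 arrays were fitted with limma 3.58.1 in R 4.3.3, two-sided, with Benjamini-Hochberg adjustment over 10369 genes: the 3 miR-7 arrays against AdGFP (2 residual degrees of freedom), and a mean per vector (1 residual degree of freedom). Both take the single AdGFP array to vary as the others do. The pooled fit was run on simulated data that also made AdGFP vary as the others do, so this could not check that assumption. "Rose" and "fell" refer to the pooled fit. Comparisons of 1 array a group have no test. Members, lists, the rule for named genes (all members; up to 6 called genes and the 2 highest and 2 lowest islet genes per list; 10 partners; the 5 genes nearest to the largest member) and alternatives were chosen with earlier results of these data known, and promoter motifs after the values were seen.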

Additional observations from a re-analysis of the deposited data

How the results depend on the processing

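No paired analysis was possible because only the AdmiR7a group has replicate numbers in the labels. Every alternative kept the direction of each of the 9 members in MIN6. With no filter on low values, 0 members fell in place of 2 (Ero1b -1.30, adjusted p = 0.0749; Pcsk1 -0.58, adjusted p = 0.0600), and of the genes in the lists 2 fell in place of 16 and 1 rose in place of 4; of all genes 554 fell in place of 1235 and 427 rose in place of 1480. With limma's trend 4 members fell (Ptprn and Scg2 besides), and 9 listed genes rose, beside 1297 genes of all that fell and 1634 that rose; with a filter at 6, 7 listed genes rose. Leaving out 1 miR-7 array left 0 members, 0 listed genes and 0 of all genes called in either direction, with Ero1b between -1.37 and -1.23 and Pcsk1 between -0.59 and -0.55; these fits have 1 residual degree of freedom, and 3765 to 3888 genes stayed at an unadjusted p under 0.05. For AdmiR7a against AdGFP, 2 members were called in place of 0 with a filter at 6, with averaged probe sets, with arrays normalized again and with arrays centred, where 1737, 967, 2362 and 2325 of all genes were called in place of 0; the cause was not tested. A limma contrast for AdmiR7b that borrows the AdmiR7a spread called 0 members, where 1 was past the size. In islets, averaging probe sets raised the Ero1b difference from 0.30 to 0.50. Equal values on several arrays limit some probe sets, among them a bright one of Iapp at 14.07 on all 6 arrays. What the arrays resolve at the highest signals was not tested.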

Other observations

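The element found in the Ero1b promoter occurs before 35 genes, 12 of them tested in MIN6, of which 3 fell and 0 rose, where 11.9% and 14.3% of all genes did: Ero1b, from which the set was built, Syvn1 and Pdia6. Other ER chaperone genes with the same element lay close to AdGFP, such as Hspa5, the BiP gene (-0.01 ± 0.08, adjusted p = 0.951), Calr (-0.06 ± 0.08, adjusted p = 0.572), Canx (-0.09 ± 0.07, adjusted p = 0.399), Dnajc3 (-0.03 ± 0.09, adjusted p = 0.850) and Hsp90b1 (-0.19 ± 0.10, adjusted p = 0.213). In KO islets their median difference was -0.01 over 13 genes. This set was chosen after the values of Ero1b were seen and carries no test.

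A probe set of Iapp, 1456004_x_at, held the same value of 14.07 on all 6 arrays to every digit, while the other 3 probe sets of the gene varied. In all, 1614 probe sets above the lowest value of the table were equal on all 6 arrays.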
